A study of Homo sapiens with 8 samples.

Results

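The IFIT genes (interferon-induced proteins with tetratricopeptide repeats) were followed in MDA231-BrM2, a brain-seeking derivative of the MDA-MB-231 breast carcinoma line. The members were the 4 genes IFIT1, IFIT2, IFIT3 and IFIT5, taken by symbol from the 57445 genes of the count table, and all 4 were among the 15806 genes with a mean of at least 10 counts per library. The RNA had been pulled down with anti-GFP beads by translating ribosome affinity purification (TRAP), which collects the polysomes of tagged carcinoma cells out of a mixed lysate, so a level here is a level on ribosomes. The 4 groups had 2 libraries each: Cx43 hairpin 1 with astrocytes, Cx43 hairpin 2 with astrocytes, a control hairpin with astrocytes, and a control hairpin without them. Cx43 is connexin 43, the gap junction protein encoded by GJA1. Cocultures were seeded with equal numbers of both cell types and kept for 24 h. All 8 libraries carried an RNA hairpin and came from the same line, no Cx43-depleted cells were grown alone, and the labels give neither the species of the astrocytes nor a total RNA input for the pull-downs.

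IFIT genes are silent or low in most resting cells and are switched on by type I and type III interferons through ISGF3, a transcription factor complex that includes STAT2 and IRF9 and binds interferon-stimulated response elements. IFIT1 binds messenger RNA whose cap lacks ribose methylation and blocks its translation, IFIT2 binds AU-rich RNA and has been linked to cell death, and IFIT3 partners both and steadies the IFIT1 complex. IFIT5 acts as a monomer and binds the bare triphosphate end of RNA. Some IFIT promoters can also be driven by IRF3 directly, without interferon.

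Promoter sequence is shown first as background on these genes, and no link between motifs and levels was tested. In the RefSeq promoter windows (GRCh38.p14, 250 bases before to 50 after a transcript start) IFIT1, IFIT3 and IFIT5 were present among the members, IFIT3 with 2 starts, and so was IFIT1B, a neighbouring relative outside the set. The motif searched was TTTCNNTTTC or its reverse complement GAAANNGAAA, the core of the response element, on both strands and counting overlapping matches separately. The stretches that hold it lie on chromosome 10, plus strand, and are written 5′ to 3′ with the matches in capitals.
IFIT1 (chr10:89392495-89392541): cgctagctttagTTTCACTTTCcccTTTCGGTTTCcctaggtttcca
IFIT3, first start (chr10:89327829-89327893): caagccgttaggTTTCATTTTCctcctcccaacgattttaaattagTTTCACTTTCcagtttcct
IFIT3, second start (chr10:89332423-89332487): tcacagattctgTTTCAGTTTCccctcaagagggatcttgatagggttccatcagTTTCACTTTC
IFIT5 (chr10:89414511-89414573): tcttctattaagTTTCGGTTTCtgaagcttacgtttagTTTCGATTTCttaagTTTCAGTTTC
IFIT1 and each IFIT3 start held 2 matches, and IFIT5 held 3. At least 1 match was present in 3.57% of the 35116 promoter windows, at least 2 in 0.259%, and 3 or more in 0.037%. The matches of IFIT1 began 116 and 103 bases before the start, and those of IFIT5 at 45, 19 and 4 bases before it. The IFIT1B window held no match to these letters, and IFIT2 had no window, so its promoter was not searched.

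**Figure D1:**
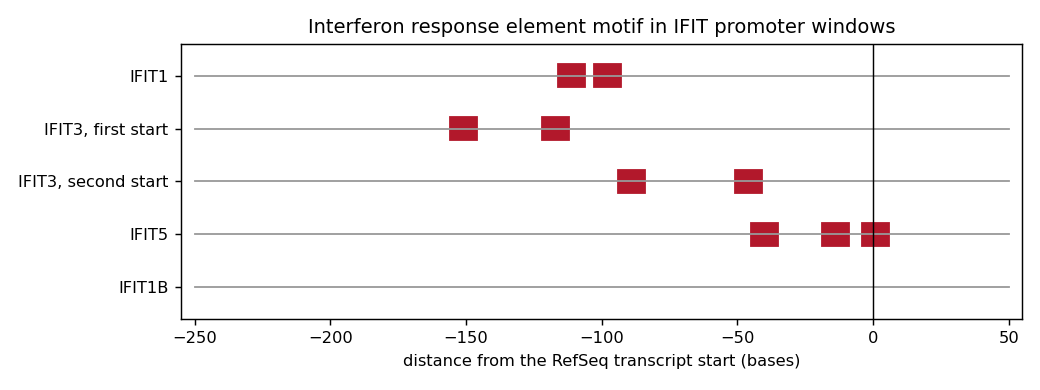
Position of TTTCNNTTTC matches (red boxes, both strands) in the promoter windows, in bases from the RefSeq transcript start (vertical line). IFIT5 carries its 3 matches closest to the start, IFIT1 and both IFIT3 starts carry 2 further upstream, and IFIT1B has none.

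Levels are given as CPM, a gene's count relative to the scaled total of its library. Gene counts ran from 38219702 to 48997555 per library, so that 3 counts corresponded to 0.0624 to 0.0805 CPM, a floor that covers counting error only. GJA1, the targeted gene, was at 27.8 and 27.8 CPM with hairpin 1 and 31.7 and 33.8 CPM with hairpin 2, against 65.9 and 64.7 CPM in the control coculture, while control cells alone had 51.1 and 46.3 CPM. Carcinoma line markers (VIM, CD44, EGFR, KRT8, KRT18 and MSN) summed to 2890 to 3080 CPM with hairpin 1 and 2850 to 2860 CPM with hairpin 2, against 3730 to 3920 CPM in the control coculture, while control cells alone had 2770 to 3090 CPM. Of these 6 genes 2 were called higher with astrocytes and 3 lower with the hairpins. Over all tested genes these shares were 8.74% and 5.85%. VIM accounted for most of the rise in the carcinoma sum. Its mean went from 1411 CPM in control cells alone to 2135 CPM when control cells were grown with astrocytes. Between the same groups CD44 (376.3 to 395.4 CPM), KRT8, KRT18 and MSN rose by less. EGFR alone went down, from 197.1 to 184 CPM. The carcinoma sum thus mostly follows VIM and is not a measure of carcinoma cell content. The summed level of 9 astrocyte markers was 63.0 to 71.6 CPM with hairpin 1, 57.7 CPM in each hairpin 2 library, 69.0 to 70.3 CPM in the control coculture, while control cells alone had 51.0 to 54.9 CPM. Of the 6 that could be tested, 3 were called higher with astrocytes and 1 was called lower with the hairpins. SOX9 made up most of the sum, at 47.74 CPM in the control coculture and 37.55 CPM in control cells alone. The sum is therefore not a measure of astrocyte RNA. Mean levels of SOX9, GFAP, SLC1A3 and SLC1A2 were higher in the control coculture than in cells alone. Those of ALDH1L1 (1.13 against 1.30 CPM) and FGFR3 (1.84 against 2.33 CPM) were lower. GJB6 was at 0 in all libraries but those of hairpin 1, and S100B had at most 2 counts in any library. Microglial markers (8 genes) summed to 1.90 to 2.10 CPM with hairpin 1, 1.64 to 1.77 CPM with hairpin 2 and 1.58 to 2.29 CPM in the control coculture, while control cells alone had 0.821 to 0.978 CPM. Only 2 of them could be tested, of which 1 was called higher with astrocytes. Both were called higher in depleted cocultures against cells alone, where 10.8% of all tested genes were. Fibroblast markers (6 genes) summed to 421 to 496 CPM with hairpin 1 and 470 to 485 CPM with hairpin 2, against 741 to 795 CPM in the control coculture, while control cells alone had 648 to 1050 CPM. Of the 5 tested, 1 was called higher with astrocytes and 2 lower with the hairpins. Over the 8 libraries oligodendrocyte markers summed to 70.5 to 88.1 CPM, neuron markers to 13.2 to 17.4 CPM and endothelial markers to 1.73 to 2.46 CPM. The part of other cells' RNA, or of the shift in these markers, in the IFIT levels was not tested, and in pulled-down bulk RNA more expressing cells cannot be told apart from more RNA per cell.

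IFIT1 was at 19.4 and 16.0 CPM with hairpin 1 and at 28.02 and 25.8 CPM with hairpin 2, against 268 and 291 CPM in the control coculture, while control cells alone had 6.45 and 7.16 CPM. IFIT2 was at 17.6 and 17.5 CPM with hairpin 1 and at 20.4 and 22.8 CPM with hairpin 2, against 126 and 121 CPM in the control coculture, while control cells alone had 6.90 and 7.40 CPM. Both genes were high only in the control coculture, and no group overlapped another. IFIT3 was at 23.3 and 21.5 CPM with hairpin 1 and at 28.9 and 29.8 CPM with hairpin 2, against 241 and 235 CPM in the control coculture, while control cells alone had 13.7 and 14.5 CPM. IFIT5 was at 34.8 and 31.1 CPM with hairpin 1 and at 31.2 and 32.6 CPM with hairpin 2, against 79.3 and 76.6 CPM in the control coculture, while control cells alone had 28.4 and 29.97 CPM. The IFIT3 groups were also fully separated, whereas the IFIT5 ranges of the hairpins overlapped each other and lay just above the range of cells alone. The share of all genes separated in this way was not counted, so separation is given as a description only.

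**Figure D2:**
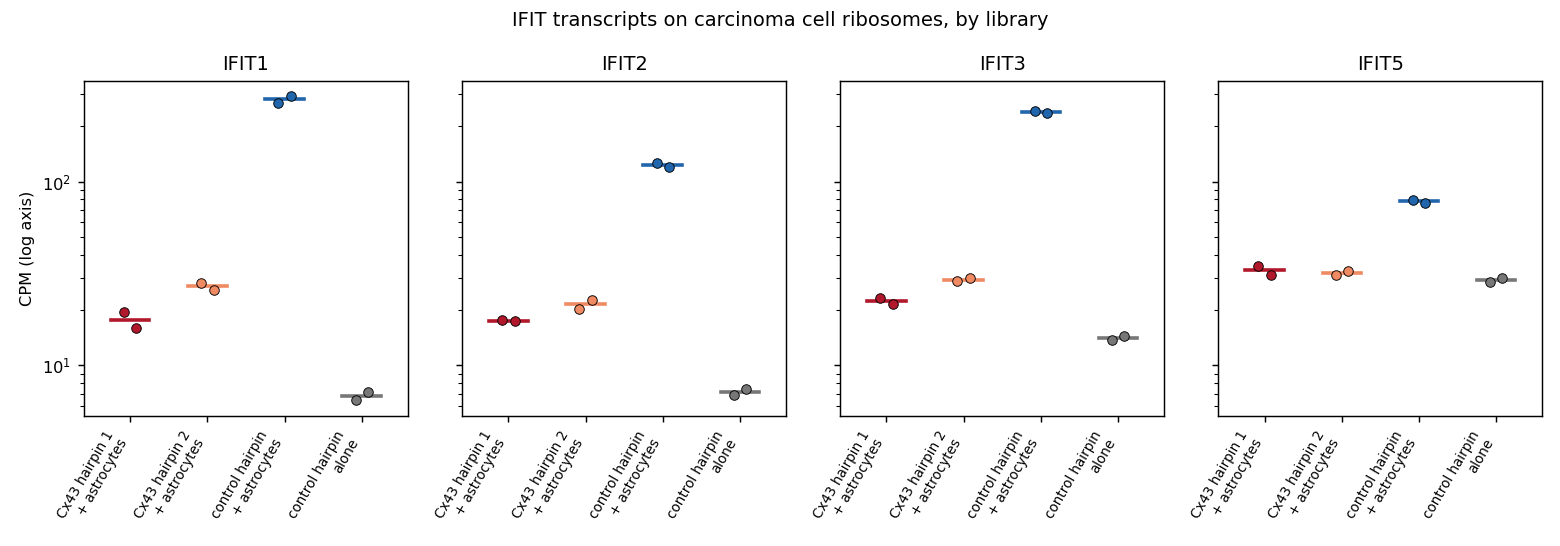
CPM of the 4 IFIT genes in each library on a log axis, by group; points are libraries and bars are means of 2. The control coculture stands above all other groups for every gene, from about 78 CPM for IFIT5 to 279 CPM for IFIT1.

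Per kilobase of exon (GENCODE v29 lengths, which are not the annotation used for counting), the order of the members differed between groups. With hairpin 1 the levels of IFIT3 (8.48 ± 0.490 CPM per kb) and IFIT5 (8.20 ± 0.651) did not differ beyond their spread, and both were above IFIT2 (4.28 ± 0.0295) and IFIT1 (3.84 ± 0.521), which also lay within their spread of each other (SD, n = 2 throughout). With hairpin 2 IFIT3 stood at 11.1 ± 0.231 CPM per kb, IFIT5 at 7.95 ± 0.257, IFIT1 at 5.84 ± 0.334 and IFIT2 at 5.26 ± 0.417, of which the last pair did not separate clearly. In the control coculture IFIT3 was highest at 90.0 ± 1.66 CPM per kb and IFIT5 lowest at 19.4 ± 0.476, with IFIT1 at 60.6 ± 3.46 and IFIT2 at 30.02 ± 0.879 between them. In control cells alone IFIT5 was highest, at 7.26 ± 0.284 CPM per kb, followed by IFIT3 at 5.34 ± 0.214, IFIT2 at 1.74 ± 0.0876 and IFIT1 at 1.48 ± 0.108. IFIT2 shares exon bases with other genes in GENCODE v29, 65 with LIPA and 356 with a noncoding gene, and the strand setting of the counting is not stated, so reads over those bases are uncertain.

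The control coculture was compared with control cells alone to ask what the presence of astrocytes changed on carcinoma cell ribosomes. All 4 members rose, in a comparison where 8.74% of tested genes were called higher and the median gene changed by -0.00256 on the log2 scale. IFIT1, the cap-sensing member, rose by 5.36 on the log2 scale (SE 0.120, adjusted p = 2.58e-08), or 41.0-fold, and ranked 11 of 15806 from the top. IFIT2 and IFIT3 rose almost equally, by 4.10 (SE 0.0865, adjusted p = 1.73e-08) and 4.07 (SE 0.0770, adjusted p = 1.42e-08), at ranks 21 and 22. IFIT5 rose less, by 1.42 (SE 0.0769, adjusted p = 6.73e-06), a 2.67-fold change at rank 171. These and all later adjusted p-values are from edgeR's quasi-likelihood test with Benjamini-Hochberg adjustment over all tested genes, with 2 libraries per group.

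The Cx43-depleted cocultures were then set against the control coculture, which asks how these levels differed when the carcinoma cells carried a Cx43 hairpin. Without depleted cells grown alone, a fall that needs astrocytes cannot be told apart from an effect of the hairpins by themselves. All 4 members fell over both hairpins, where 5.85% of tested genes were called lower and the median gene changed by -0.00798. IFIT1 fell by 3.68 (SE 0.0832, adjusted p = 2.92e-08), leaving a level 12.8-fold below that of the control coculture, and ranked 7 of 15806 from the bottom. IFIT3 fell by 3.21 (SE 0.0570, adjusted p = 7.67e-09), IFIT2 by 2.66 (SE 0.0624, adjusted p = 2.92e-08) and IFIT5 by 1.27 (SE 0.0633, adjusted p = 4.21e-06), at ranks 16, 30 and 97 from the bottom. This comparison shares its control coculture libraries with the preceding one, so the order of the members in one is not independent of that in the other.

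The 4 falls were called with each hairpin. Both hairpins were set against the same control coculture libraries, so these comparisons are not independent. With hairpin 1, where 4.73% of genes were called lower, IFIT1 fell by 3.98, IFIT3 by 3.41, IFIT2 by 2.81 and IFIT5 by 1.24 (adjusted p = 1.79e-07, 5.37e-08, 1.79e-07 and 2.34e-05). With hairpin 2, where 3.2% were called lower, the falls were 3.38, 3.02, 2.51 and 1.29 in the same order (adjusted p = 3.67e-07, 1.23e-07, 3.67e-07 and 2.05e-05).

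The hairpins were also set against each other, to ask whether they left different levels of the members. Levels of IFIT1, IFIT2 and IFIT3 were higher in every hairpin 2 library than in any hairpin 1 library. Hairpin 2 minus hairpin 1 was 0.60 for IFIT1 (SE 0.104, adjusted p = 0.251), 0.39 for IFIT3 (SE 0.0709, adjusted p = 0.293), 0.30 for IFIT2 (SE 0.0789, adjusted p = 0.705) and -0.05 for IFIT5 (SE 0.0770, adjusted p = 0.880). None of these 4 passed edgeR's test, in which 0.0316% of all genes, 5 in number, were called. Before adjustment 3 of the 4 had a p under 0.05, as did 1084 of the 15806 tested genes. IFIT1 and IFIT3 did pass with DESeq2 (adjusted p = 0.00156 and 0.0494) and without the low count filter (adjusted p = 1.44e-06 and 0.0105). Without that filter 304 genes were called between the hairpins, against 5 with it. The unfiltered edgeR fit also took IFIT5 with astrocytes from an adjusted p of 6.73e-06 to 1.76e-43, at log2 changes of 1.42 and 1.40. Adjusted p-values of that setting are therefore not comparable with those of the main fit. GJA1 was 0.24 higher with hairpin 2 (SE 0.0738, adjusted p = 0.705).

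Depleted cocultures were set against control cells alone to see what remained of the astrocyte-associated level. IFIT1 stayed higher by 1.68 (SE 0.102, adjusted p = 6.19e-05), IFIT2 by 1.44 (SE 0.0764, adjusted p = 2.90e-05) and IFIT3 by 0.86 (SE 0.0648, adjusted p = 0.000153), in a comparison where 10.8% of tested genes were called higher. IFIT5 was 0.15 higher (SE 0.0671) and did not pass (adjusted p = 0.145). On the linear scale, the share of the coculture increase that was left with the hairpins was 5.69% ± 2.0 for IFIT1, 10.7% ± 2.2 for IFIT2, 5.26% ± 1.8 for IFIT3 and 6.66% ± 3.5 for IFIT5 (SD over 4 hairpin libraries). This SD takes in the difference between the hairpins and leaves out the spread of the control libraries. With hairpin 1 the shares were 4%, 8.96%, 3.7% and 7.7% in the same order, and with hairpin 2 they were 7.38%, 12.4%, 6.81% and 5.62%. IFIT2 kept the highest share, and its lowest library, at 8.89%, lay above every library of IFIT1 and IFIT3, the highest of which was at 7.78%, but not above those of IFIT5, which reached 11.5%. No test was made of these shares. Depleted cells without astrocytes were not part of the design, so the remaining level cannot be told apart from an effect of the hairpins themselves.

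**Figure D3:**
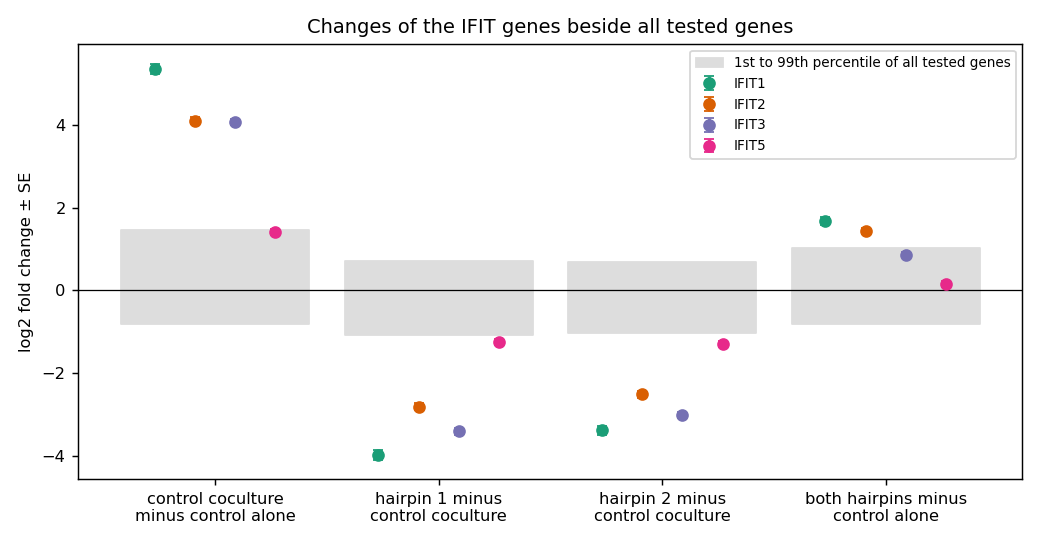
Log2 fold changes of the 4 IFIT genes with their SE in 4 comparisons, over a grey band from the 1st to the 99th percentile of all tested genes. IFIT1 moves furthest in each comparison, and IFIT5 lies inside the band with astrocytes (1.42), as do IFIT3 (0.86) and IFIT5 (0.15) in the depleted cocultures against control cells alone.

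Ratios between members within a library do not depend on library scaling and show how unequally the genes moved. The log2 ratio of IFIT1 over IFIT5 averaged 1.84 in the control coculture and -2.10 in control cells alone, a difference of 3.94. It averaged -0.57 with the hairpins, 2.41 below the control coculture. IFIT2 and IFIT3 kept nearly the same ratio with and without astrocytes, at -0.94 and -0.96 in the control coculture against -0.99 and -0.97 in control cells alone. With the hairpins that ratio lay higher, at -0.40 and -0.30 with hairpin 1 and -0.50 and -0.38 with hairpin 2, so IFIT2 lost less than IFIT3 by 0.55 in the mean, and the 4 libraries did not overlap those of the control coculture. The IFIT1 over IFIT2 ratio averaged 0.16 with the hairpins and 1.18 in the control coculture, again without overlap. In exact two-sided permutation tests over libraries all 12 differences (6 pairs, 2 comparisons) gave the smallest p the design allows, 0.333 for 2 against 2 libraries and 0.0667 for 4 against 2, or 0.333 and 0.133 after adjustment over the 12, so none could pass 0.05.

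**Figure D4:**
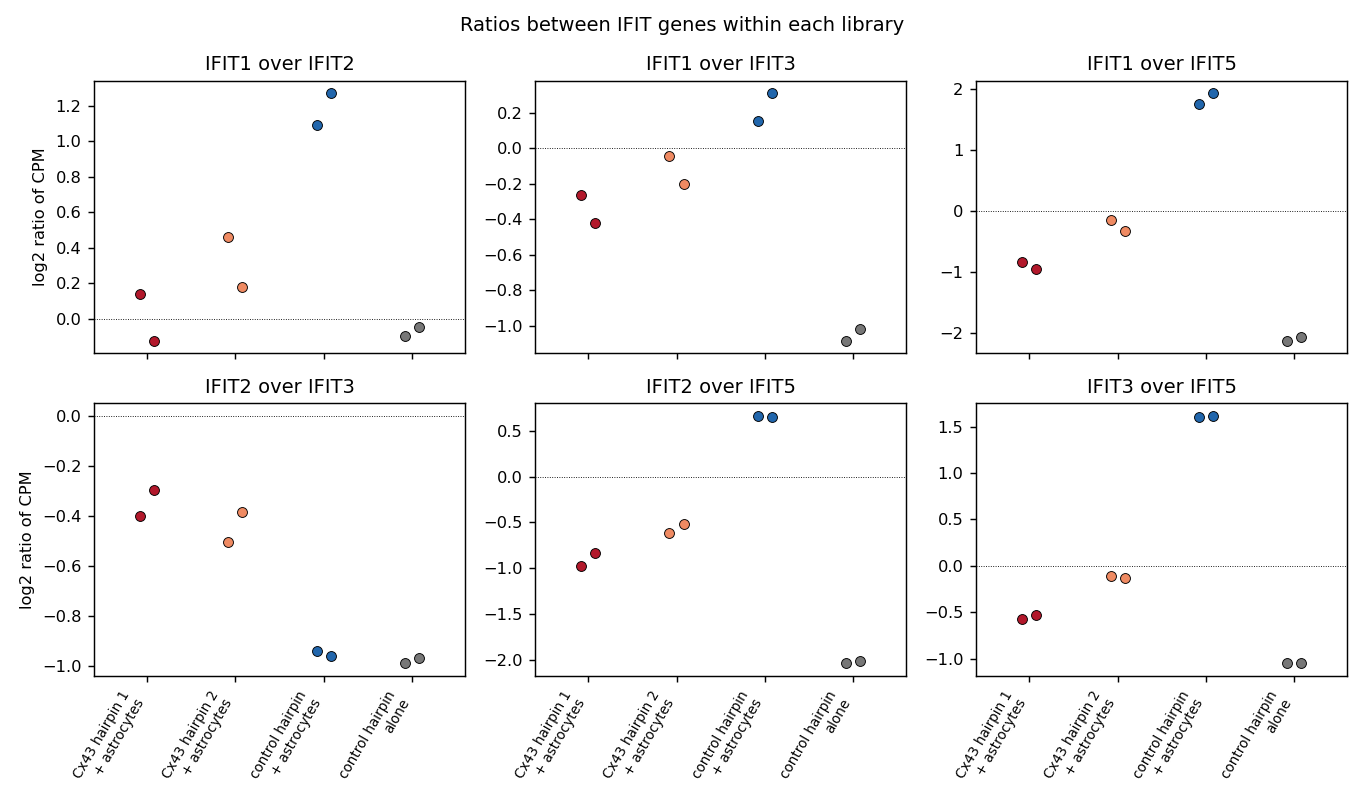
Log2 ratio of CPM between each pair of IFIT genes, 1 point per library, by group. The IFIT2 over IFIT3 panel shows nearly equal values in both control groups and higher values in all 4 hairpin libraries, while the ratios over IFIT5 are highest in the control coculture.

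Genes of most like pattern were ranked by the root mean square difference of centred log2 CPM over the 8 libraries, among 12768 other protein-coding genes tested. Nearest to IFIT1 were OAS2 (0.144 log2 units), OASL (0.287) and MX1 (0.300), antiviral effectors of the oligoadenylate synthetase and dynamin-like GTPase families. Nearest to IFIT2 were the RNA sensor IFIH1 (0.0804), EPSTI1 (0.215) and the ADP-ribosyltransferase family member PARP9 (0.259). Nearest to IFIT3 were USP18 (0.0909), which removes ISG15 and dampens interferon signalling, OAS3 (0.0978) and the guanylate-binding protein GBP5 (0.176). IFIT5 stood apart from its own family, with TRIM69 (0.100), the DNA-binding IFI16 (0.120) and PARP10 (0.132) nearest, against 0.959 from IFIT2, 1.00 from IFIT3 and 1.43 from IFIT1. IFIT1, IFIT2 and IFIT3 were 0.288 to 0.508 log2 units from each other. OAS2, whose hairpin difference of 0.61 was about the size of that of IFIT1, passed that test (adjusted p = 0.0400), but not once any 1 of the 8 libraries was left out (0.56 to 0.64, adjusted p = 0.0740 to 0.877). Of the 12 genes 7 had a RefSeq promoter window, and 6 of these held at least 1 TTTCNNTTTC match, with 3 in IFIH1 and none in IFI16. Among all 27305 gene symbols with a window the share was 4.38%. That background includes noncoding and untested genes, unlike the 12, and a link between motif and pattern was not tested.

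Of 7 genes in the chain from the interferon receptor to ISGF3, 4 rose with astrocytes (median 0.37) and 3 fell with the hairpins while 1 rose (median -0.04). Beside this and the later list counts, 8.74% of all tested genes were called higher and 2.93% lower with astrocytes. With the hairpins 3.37% were called higher and 5.85% lower. STAT2 and IRF9, subunits of ISGF3, rose with astrocytes by 1.53 and 1.74 (adjusted p = 0.000243 and 0.00268) and fell with the hairpins by 1.33 and 1.27 (adjusted p = 0.000250 and 0.00688). The receptor chain IFNAR2 rose with astrocytes by 0.37 (adjusted p = 0.0208) and changed by 0.07 with the hairpins (adjusted p = 0.613). IFNAR1 changed by -0.07 with astrocytes (adjusted p = 0.577) and was 0.31 higher with the hairpins (adjusted p = 0.0159). The receptor-bound kinases JAK1 (0.32 with astrocytes, adjusted p = 0.0773) and TYK2 (0.03, adjusted p = 0.908) did not pass. The fall of IRF9 missed the threshold without control coculture replicate 2 (-1.15, adjusted p = 0.0724). The rise of IFNAR2 missed it without control coculture replicate 1 or either library of cells alone (0.30 to 0.40, adjusted p = 0.0723 to 0.161), and that of IFNAR1 without hairpin 2 replicate 2 or either control coculture library (0.28 to 0.34, adjusted p = 0.0715 to 0.132).

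Of the interferon regulatory factors, 5 of 6 were tested, 3 rose with astrocytes (median 0.93) and 4 fell with the hairpins (median -0.61). IRF7, the amplifier of interferon gene transcription, rose by 2.98 (adjusted p = 1.18e-07) and fell by 2.43 (adjusted p = 9.13e-08). IRF1 and IRF2 rose by 0.93 and 0.95 (adjusted p = 5.40e-05 and 0.000172) and fell by 0.61 and 0.92 (adjusted p = 0.000410 and 9.24e-05). IRF3, which can act on IFIT promoters directly, changed by 0.13 with astrocytes (adjusted p = 0.254) and fell by 0.27 with the hairpins (adjusted p = 0.0267). That fall missed the threshold without any 1 library of hairpin 2, the control coculture or cells alone (-0.33 to -0.20, adjusted p = 0.0524 to 0.249). Interferon transcripts themselves were few: none of 9 ligand genes was tested, and the highest count of any in a library was 9, that of IFNE. IFNE averaged 0.168 CPM in control cells alone, above the floor. The pull-down targets carcinoma cell ribosomes, so interferon RNA made by the astrocytes was not measured.

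Among 12 other antiviral RNA-binding genes 11 rose with astrocytes (median 2.99) and 11 fell with the hairpins (median -2.46). All 5 interferon feedback genes rose with astrocytes (median 1.10), led by USP18 (3.95, adjusted p = 2.95e-08), and 4 fell with the hairpins (median -0.57), with SOCS3 at -0.01 (adjusted p = 0.948). ZC3HAV1, an RNA-binding antiviral protein, missed the threshold with the hairpins without control coculture replicate 1 (-0.58, adjusted p = 0.0593). Among the feedback genes, SOCS3 missed it with astrocytes without any 1 library of hairpin 2, the control coculture or cells alone (0.24 to 0.34, adjusted p = 0.0757 to 0.257). PIAS1, an inhibitor of STAT signalling, missed it with astrocytes without any 1 library of the control coculture or cells alone (0.41 to 0.52, adjusted p = 0.0640 to 0.113). With the hairpins it missed it without any 1 library of hairpin 2 or the control coculture or without replicate 1 of cells alone (-0.38 to -0.34, adjusted p = 0.0540 to 0.162).

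Genes that make or bind the cap, which sets whether IFIT1 recognises an RNA, showed 1 rise and 1 fall among 9 with astrocytes (median 0.02), where 2.93% of all genes were called lower, and 2 rises and 1 fall with the hairpins (median 0.03), where 3.37% were called higher. FTSJD2, also called CMTR1, the enzyme of the first ribose methylation of the cap, was at 87.1 CPM with the hairpins, against 117 CPM in the control coculture, and control cells alone had 84.1 CPM. It rose with astrocytes by 0.48 (adjusted p = 0.00313) and fell with the hairpins by 0.43 (adjusted p = 0.00370). FTSJD1, also called CMTR2, which methylates the next nucleotide, was at -0.25 with astrocytes (adjusted p = 0.0503) and rose by 0.49 with the hairpins (adjusted p = 0.00182). The nuclear cap-binding subunit NCBP1 fell with astrocytes by 0.26 (adjusted p = 0.0329) and rose with the hairpins by 0.25 (adjusted p = 0.0269). Of 13 subunits of eIF3, the translation initiation factor that IFIT1 and IFIT2 can bind, 1 rose with astrocytes (EIF3L, 0.33, adjusted p = 0.0144). With the hairpins 2 fell (EIF3F by 0.37 and EIF3L by 0.26, adjusted p = 0.00808 and 0.0263). Over all tested genes 8.74% were called higher with astrocytes and 5.85% lower with the hairpins. Both NCBP1 calls were lost without any 1 library of hairpin 2, the control coculture or cells alone (adjusted p = 0.0527 to 0.193). EIF3F missed the threshold without hairpin 2 replicate 2 (-0.35, adjusted p = 0.0543) or control coculture replicate 2 (-0.32, adjusted p = 0.111). EIF3L missed it with astrocytes without control coculture replicate 1 or either library of cells alone (0.26 to 0.33, adjusted p = 0.0744 to 0.122), and with the hairpins without any 1 library of hairpin 2 or the control coculture (-0.31 to -0.20, adjusted p = 0.0724 to 0.179).

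**Figure D5:**
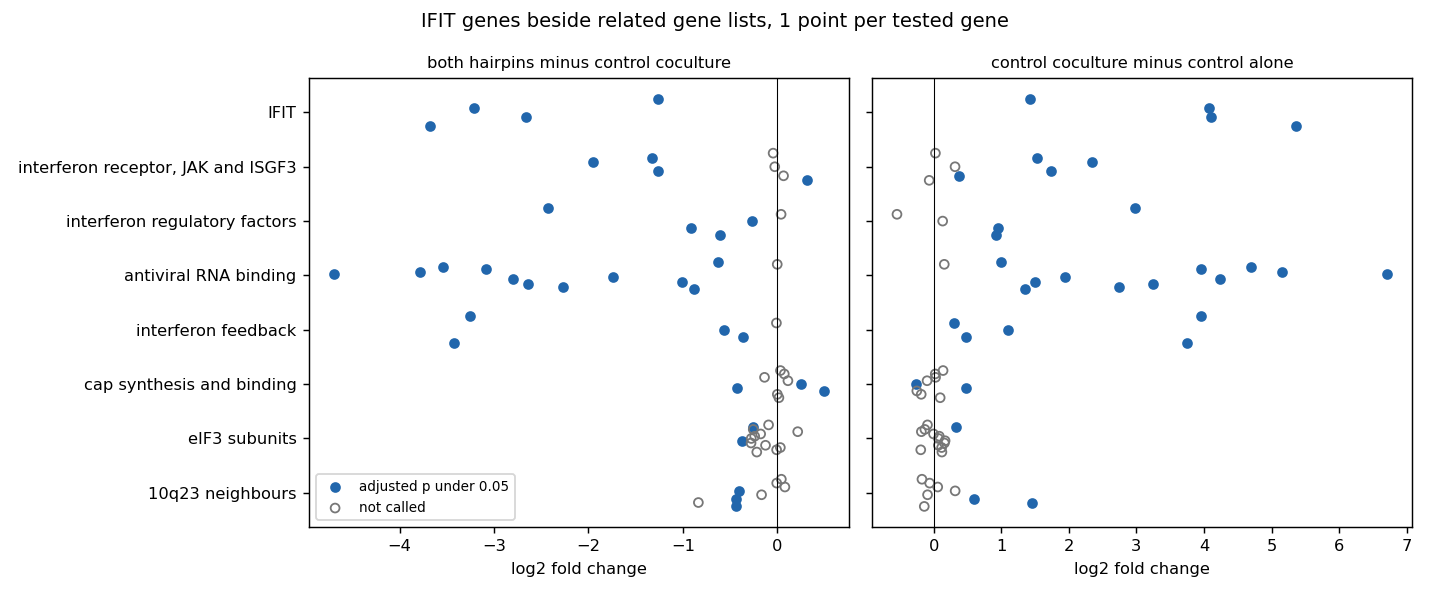
Log2 fold changes of tested genes in 7 related lists beside the 4 IFIT genes, for both hairpins minus the control coculture (left) and the control coculture minus control cells alone (right); filled points passed the test. The IFIT genes and antiviral RNA-binding genes lie far from 0, while cap, eIF3 and neighbouring genes lie mostly within 0.5 of it.

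Neighbours of the IFIT cluster on chromosome 10 were read from the same fit. Of 8 tested, 2 rose with astrocytes (median 0.000912), where 8.74% of all genes were called higher. With the hairpins 3 fell (median -0.29), where 5.85% were called lower. The death receptor gene FAS rose by 0.60 (adjusted p = 0.00326) and fell by 0.44 (adjusted p = 0.0101). CH25H, which encodes cholesterol 25-hydroxylase, had 26 and 18 counts in the control coculture against 11 and 8 in control cells alone, a rise of 1.45 (adjusted p = 0.0481), and was at -0.84 with the hairpins (adjusted p = 0.136). LIPA, the lysosomal lipase whose annotated span on the opposite strand covers IFIT1, IFIT2 and IFIT3, changed by 0.32 with astrocytes (adjusted p = 0.0606) and fell by 0.40 with the hairpins (adjusted p = 0.0176). The fall of FAS missed the threshold without control coculture replicate 1 (-0.47, adjusted p = 0.0565) or 2 (-0.40, adjusted p = 0.111). The rise of CH25H missed it without any 1 library of hairpin 2, the control coculture or cells alone (1.14 to 1.76, adjusted p = 0.0728 to 0.259). The fall of LIPA missed it without any 1 library of hairpin 2 or the control coculture (-0.46 to -0.34, adjusted p = 0.0528 to 0.177), as did that of the smooth muscle actin gene ACTA2, the other neighbour that fell (-0.52 to -0.34, adjusted p = 0.0750 to 0.172). IFIT1B had 0 or 1 count in every library, and the pseudogenes IFIT1P1 and IFIT6P had at most 3.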

How the data were processed

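TRAP RNA from 8 libraries was sequenced after TruSeq RNA v2 preparation, per the labels' protocols. TopHat2, HTSeq, DESeq2 and hg19 are named, per the submitters' processing notes; their versions, the annotation and the strand mode of counting are not given in the sources used here. The authors deposited whole-number read counts, 1 per gene and library, in a table called normalized: median-of-ratios factors ran from 0.889 to 1.14, and the 5 counter entries are kept in it. These entries were left out; reads with several alignments took 14.2% to 26.1% of a column and ambiguous reads 2.63% to 3.20%. Counts were fitted in edgeR 4.0.16 (R 4.3.3) with TMM scaling, the 4 groups as the design and 8 libraries in 1 fit, over the 15806 genes whose mean was 10 counts or more, at an adjusted p of 0.05. On simulated counts for the coculture comparison (15806 genes), 50 of 50 genes set at each of 1, 2 and -2 log2 units and 49 of 50 at -1 were recovered, and 13 of the 212 genes called had not been changed. The changed genes all had a mean of at least 50 counts, and the counts were drawn with dispersions fitted to these data. Recovery of genes with fewer counts was not tested. Log2 CPM used a prior count of 0.5. The series design calls the replicates independent; replicates differed by more than sampling noise (chi-square per degree of freedom 4.22 to 32.6). Alternatives included DESeq2 1.42.0, other scalings and filters, a replicate block and leaving out each library. The members and lists were chosen with earlier results of these data known. Named genes were the members, GJA1, the 3 genes of most like pattern per member, up to 4 genes per list with the smallest p, and any gene of the ISGF3, IRF, cap and neighbour lists. ZC3HAV1, SOCS3, PIAS1, OAS2 between hairpins, IFNE, the marker genes given singly and the IFIT relatives were named after their values were seen. List counts cover every gene of a list, of which some are not reported here by name. Promoter sequences are from RefSeq (GRCh38.p14); 3 of 4 members matched.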

Additional observations from a re-analysis of the deposited data

How the results depend on the processing

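The members' calls held in every comparison other than that between the hairpins, under all 14 alternative settings: with astrocytes and with the hairpins, each alone or both, all 4 were called every time, and 3 of 4 in depleted cocultures against control cells alone. Without each library in turn IFIT1 lay between 5.27 and 5.43 with astrocytes and between -3.75 and -3.61 with both hairpins, and IFIT5 between 1.37 and 1.45 and between -1.31 and -1.23. The rise of GJA1 with astrocytes missed the threshold when replicate 2 of the cells alone was left out (0.34, adjusted p = 0.0616), and when replicate 1 of the control coculture was (0.41, adjusted p = 0.0507). Of 84 calls of single genes, 10 were lost under the replicate block, 5 with only the groups compared in the fit, and 1 each with DESeq2, upper quartile factors and no filter. Between the hairpins 2 members were called without the low count filter and 2 with DESeq2, against 0 with edgeR; over the alternatives the adjusted p of IFIT1 ran from 1.44e-06 to 0.9999, and the cause was not tested. The 12 ratio differences kept their direction with a prior count of 2. The shares of the increase left moved by less than 1 SD, an SD that takes in the difference between the hairpins. Without each library they lay between 4.99% and 6.45% for IFIT1, 9.78% and 11.3% for IFIT2, 4.68% and 5.89% for IFIT3, and 4.53% and 7.88% for IFIT5.

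Counts over all genes moved more. In the order astrocytes, both hairpins, hairpin 1, hairpin 2, between hairpins, and depleted against alone, they ran without each library from 738 to 2582, 343 to 2314, 281 to 2405, 150 to 1101, 0 to 3, and 531 to 4717. Without the filter they were 2805 (astrocytes), 2269 (hairpin 1), 1191 (hairpin 2), 304 (between hairpins) and 4117 (depleted against alone). Between hairpins 3 genes were called with upper quartile factors, 22 with DESeq2 and 2 with only those groups in the fit, and hairpin 1 had 236 calls with only its groups in the fit. With the replicate block the counts were 1160, 700, 446, 319, 0 and 1502, and no call of a member was lost. Same-numbered libraries correlated between -0.357 and 0.184 in their deviations, so the numbers were not taken to pair the samples.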
